A study of Saccharomyces cerevisiae with 6 samples.

Results

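Transcript levels after overnight growth in rapamycin were compared with those of untreated wild type across all genes of the budding yeast Saccharomyces cerevisiae. Of the 6 libraries of the series, 4 form the comparison: 2 of wild type without drug, called WT, and 2 of the same wild type incubated overnight with rapamycin at 50 ng/ml. The other 2 libraries, of a bud27 deletion, entered only the row filter, the scaling factors and the estimate of the spread between replicates. They were shallower than the compared libraries, with 2083667 and 3463759 reads in gene rows. Every sample had the BY4741 background, a haploid of mating type a, and was grown in the rich glucose medium YPD at 30 °C and collected near an optical density of 0.8. Rapamycin-treated cells had therefore grown in the drug to the same density as the controls, and the comparison holds no early time point. The deposited table has 7247 rows. Its 5475 gene rows were chosen by name, leaving out 925 cryptic unstable transcripts and 847 stable unannotated transcripts, and 5279 of them held enough reads to be tested. Of the rows tested, 281 join several annotated features, so their reads cannot be assigned to a single gene.

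Rapamycin binds the small protein Fpr1, and the pair inhibits TOR complex 1, a kinase that promotes growth when nutrients are plentiful. Active TOR complex 1 keeps the transcription factors of ribosome production at work, holds the nitrogen factors Gln3 and Gat1 and the stress factors Msn2 and Msn4 out of the nucleus, and restrains autophagy. In rich medium good nitrogen sources also keep genes for the use of poor nitrogen sources low, which is called nitrogen catabolite repression.

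The libraries count 3′ ends, so a value does not grow with gene length. Each value is relative to the reads of its library and is not an amount of RNA per cell. WT libraries held 20174227 and 12984135 reads in gene rows and rapamycin libraries 21041529 and 15283015. Levels are given as scaled CPM, the deposited CPM after TMM scaling, in the order replicate 1 and replicate 2. Log2 fold changes are differences of log2(scaled CPM + 1), a scale that understates the change of rare transcripts. A row is said to rise, fall or change when its limma adjusted p was below 0.05 over all 5279 rows. Nothing in the labels states that replicates were grown as independent cultures. The p-values therefore reflect only how far these samples scatter, and that scatter may be technical. In bulk RNA fewer cells of a kind and less RNA per cell cannot be told apart. The strain was checked through its markers: the a-factor gene MFA1 had 11807 and 9956 reads in WT and 66708 and 48224 after rapamycin, and STE2, the receptor of a cells, had 4139 and 3061 reads in WT and 9621 and 6665 after rapamycin. Of the genes of α cells, the α-factor genes MF(ALPHA)1 and MF(ALPHA)2 had at most 1 and 7 reads in a library, while the receptor STE3 had 89 and 42 reads in WT and 221 and 183 after rapamycin. STE3 and the agglutinin SAG1, the α-cell genes with enough reads to be tested, both rose, by 0.79 (SE 0.24) and 0.97 (SE 0.16). The number of these called was 2 without WT replicate 1, 1 without WT replicate 2, 1 without rapamycin replicate 1 and 1 without rapamycin replicate 2. Of genes that BY4741 lacks, LEU2 had 1 and 14 reads in WT and 1 and 1 after rapamycin, MET17 had 31 and 80 reads in WT and 0 and 0 after rapamycin, and URA3 had 70 and 42 reads in WT and 66 and 42 after rapamycin. The fourth, HIS3, shares a row with another gene.

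Most of the response was of moderate size. Of 5279 rows, 2421 changed (45.9%), 1286 of them higher (24.4%) and 1135 lower (21.5%). With so many rows called, most lists hold calls, so calls in a list do not by themselves set it apart. At least a 2-fold change was called for 568 rows that rose (10.8%) and 469 that fell (8.88%), while 1384 called rows, or 57.2% of the called, moved by less than 2-fold. The far ends were uneven: 170 rows rose and 42 fell by 4-fold or more, and 53 rose and 1 fell by 8-fold or more. Among called rows the median log2 fold change was 0.93 for those higher and -0.90 for those lower, and the smallest called change was 0.35. The WT and rapamycin libraries did not overlap in 4246 rows (80.4%). The SD of the difference between libraries over all rows was 0.27 for the WT pair and 0.27 for the rapamycin pair, against 0.91 between the group means.

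Among single genes averaging 20 CPM or more, the 12 that rose most included, beside the nitrogen genes described below, AMD2, an amidase homolog, PHM8, a phosphatase of nucleotides, and GPG1. PHM8 had 1.99 and 2.26 scaled CPM in WT and 53.2 and 54.2 after rapamycin, a log2 fold change of 4.13 (SE 0.2, limma adjusted p = 6.46e-06). GPG1 went from 1.45 and 1.92 to 65.2 and 55.9, or 4.52 (SE 0.19). The 12 that fell most held 3 small nucleolar RNAs, SNR63, SNR13 and SNR49, at -2.88 (SE 0.18), -2.84 (SE 0.19) and -2.4 (SE 0.23).

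**Figure D1:**
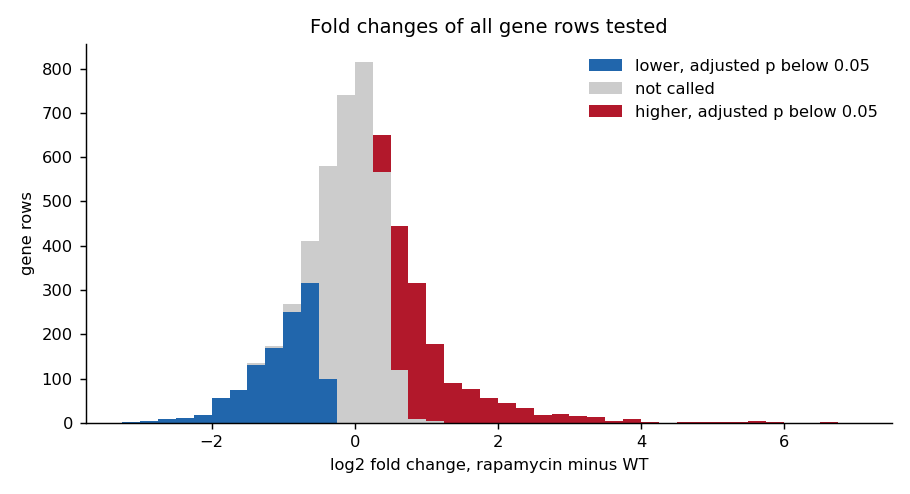
Distribution of log2 fold change (rapamycin minus WT, log2(scaled CPM + 1)) over the 5279 tested gene rows, with the number of rows on the y axis and called rows coloured by direction. Bars are stacked. The rows called higher reach farther from 0 than those called lower, as the 170 against 42 rows at 4-fold or more show.

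How the calls split between directions depended on scaling. On the deposited scale, without TMM, the median of all rows moved from 0.05 to 0.60, and the calls became 2886 higher (54.7%) and 432 lower (8.18%). The deletion libraries mattered too: with only the 4 compared libraries, 3052 rows were called, 1493 higher and 1559 lower. Changes below are given on the TMM scale, and counts marked as deposited are those on the deposited scale. The latter are given where a list's direction turned or its leading count moved by over 1.5 times. The counts of each list stand against 24.4% of all rows higher and 21.5% lower, or 54.7% and 8.18% as deposited. Fewer rows were called with 1 library left out: leaving out WT replicate 1 gave 1605 called rows and leaving out WT replicate 2 gave 1610. Leaving out rapamycin replicate 1 gave 1588, and rapamycin replicate 2 gave 1685. Counts of a list with 1 library left out are given below in the order WT replicate 1, WT replicate 2, rapamycin replicate 1 and rapamycin replicate 2.

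The share of reads held by several classes of genes differed between the groups by far more than between replicates. Not all did: the vacuolar proton ATPase held 0.8171% and 0.9149% in WT and 0.8195% and 0.8225% after rapamycin. The classes given next are among those that moved. Genes for making ribosomes and for translation held 47.8% and 47.1% of gene reads in WT and 27.5% and 27.3% after rapamycin. Glycolysis went from 14.8% and 14.9% to 10.4% and 10.5%. Cell wall genes held 4.47% and 4.01% in WT and 8.11% and 8.13% after rapamycin, and genes of nitrogen use held 0.482% and 0.515% against 2.02% and 1.99%. The TCA cycle took 0.328% and 0.347% of gene reads in WT and 1.16% and 1.16% after the drug. Genes in no list, 3045 rows of which 2924 were tested, held 13.1% and 13.5% in WT and 23.7% and 23.5% after rapamycin. The 100 most abundant rows held 58.1% and 56.5% of gene reads in WT and 44.8% and 44.5% after rapamycin. These shares are parts of a whole.

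**Figure D2:**
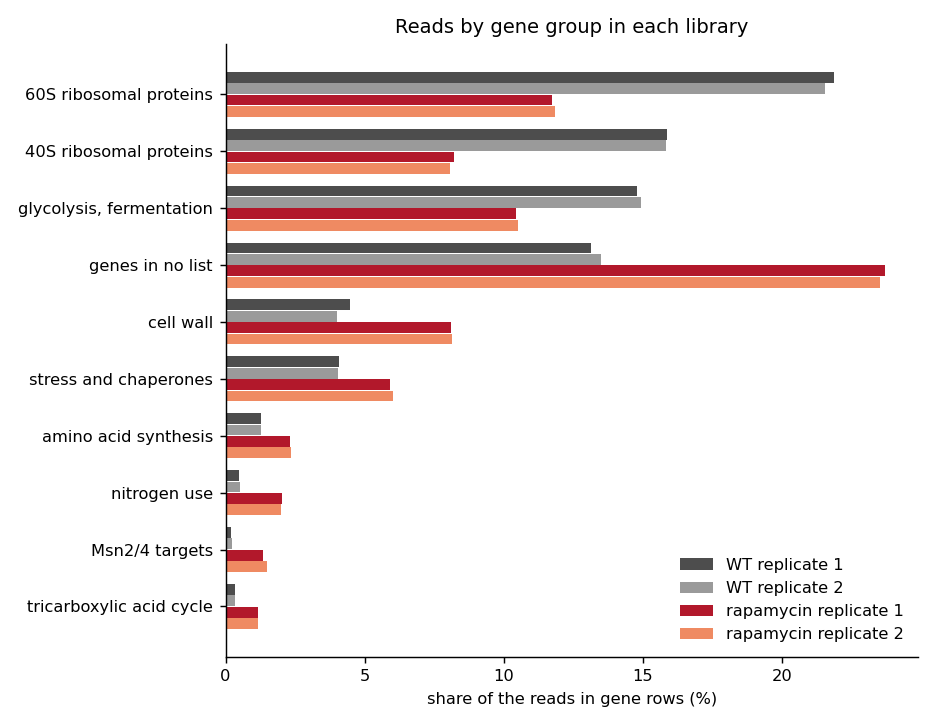
Share of the reads in gene rows (percent, x axis) held by 10 groups of genes, with 1 bar for each WT and rapamycin library. Ribosomal proteins and glycolysis hold less after rapamycin, and the cell wall, stress and nitrogen groups and genes in no list hold more, in both replicates.

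Genes of nitrogen use had the highest median log2 fold change of the classes of genes examined, 1.12 over 81 rows, of which 54 rose and 10 fell. The promoters of 2 of them are shown for the sites of the GATA factors Gln3 and Gat1, with the motif GATAAG, or its reverse complement, in capitals. Both stretches are the 250 bases before the start codon, from the RefSeq genome of build R64, and each gene is a textbook target of nitrogen catabolite repression.
MEP2, chrXIV:357203-357452, plus strand: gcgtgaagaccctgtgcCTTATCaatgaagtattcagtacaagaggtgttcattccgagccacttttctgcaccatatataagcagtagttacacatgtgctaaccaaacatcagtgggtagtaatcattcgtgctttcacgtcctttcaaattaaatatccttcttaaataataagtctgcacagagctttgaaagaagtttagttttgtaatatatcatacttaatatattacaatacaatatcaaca
DAL3, chrIX:415618-415867, minus strand: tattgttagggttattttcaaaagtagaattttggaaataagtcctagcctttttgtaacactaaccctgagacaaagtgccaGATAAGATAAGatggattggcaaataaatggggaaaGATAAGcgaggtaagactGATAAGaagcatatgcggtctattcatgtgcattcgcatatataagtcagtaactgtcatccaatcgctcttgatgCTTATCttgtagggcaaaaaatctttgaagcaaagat
The promoter of MEP2 held 1 match and that of DAL3 held 5. Both were picked as leading risers that hold the motif. In the window of 250 bases before and 50 after the start codon, GATAAG stood in 2 of 11 ammonium and glutamate promoters. It stood in 5 of 10 promoters of the allantoin and urea list and 7 of 27 of permeases. Medians with and without it were 3.36 and 2.10, 3.22 and 2.88, and 0.73 and 0.17 in these lists.

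MEP2 encodes the high-affinity ammonium permease, and DAL3 the ureidoglycolate lyase of allantoin breakdown. MEP2 had 4.46 and 5.96 scaled CPM in WT and 371 and 357 after rapamycin, a log2 fold change of 5.89 (SE 0.17, limma adjusted p = 1.65e-06). DAL3 went from 3.05 and 3.42 to 155 and 139, a log2 fold change of 5.13 (SE 0.15, limma adjusted p = 1.65e-06). In both genes the rapamycin libraries lay far above the WT libraries and close to each other.

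All 10 measured genes of the allantoin and urea list rose, with a median log2 fold change of 3.11, against 24.4% of all rows higher. DAL5, the allantoate permease, had 3.78 and 5.27 in WT and 78.9 and 79.7 after rapamycin, a log2 fold change of 3.87 (SE 0.2). The urea transporter DUR3 had 1.26 and 2.6 in WT and 25.3 and 26.9 after rapamycin, and its log2 fold change was 3.25 (SE 0.26). The weakest riser, DCG1, changed by 1.0 (SE 0.2), so members of the pathway differed widely in size of response. The list also holds PUT4, a proline permease, at 3.22 (SE 0.16).

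Of 11 genes of ammonium uptake and glutamate and glutamine synthesis, 8 rose and 1 fell. GDH1, the NADPH-dependent glutamate dehydrogenase that fixes ammonium, had 142 and 157 scaled CPM in WT and 1867 and 1809 after rapamycin, a log2 fold change of 3.61 (SE 0.14, limma adjusted p = 3.14e-06). GLN1, glutamine synthetase, went from 161 and 180.2 to 658 and 819.8, a log2 fold change of 2.1 (SE 0.16). The ammonium permease MEP1 rose by 3.46 (SE 0.15), and the NAD-linked dehydrogenase GDH2, which breaks glutamate down, by 2.33 (SE 0.15). Enzymes of assimilation and of breakdown thus both rose. GLT1, glutamate synthase, had a log2 fold change of 1.17 (SE 0.55, limma adjusted p = 0.12) and was not called, and ATO3, a putative ammonium exporter, fell by 1.08 (SE 0.15).

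The regulators of these genes rose more mildly. Of 12 tested, 10 were higher and none was lower, at a median of 0.78, and the number higher was 9 without WT replicate 1, 7 without WT replicate 2, 6 without rapamycin replicate 1 and 9 without rapamycin replicate 2. GAT1, itself a GATA activator, had 4.56 and 6.02 in WT and 27.1 and 28.0 after rapamycin, a log2 fold change of 2.19 (SE 0.23, limma adjusted p = 0.000228). GLN3, the other activator, changed less, from 28.6 and 23.6 to 43.7 and 46.3, or 0.77 (SE 0.15). URE2, which holds Gln3 in the cytoplasm, was at 0.2 and not called. NPR1, a kinase that protects permeases, and VID30 rose by 1.33 (SE 0.14) and 1.42 (SE 0.16).

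Amino acid permeases moved in both directions. Of 28 tested, 13 rose and 5 fell (21 higher and 1 lower as deposited). GAP1, the general permease, had 2 and 2 reads in WT and 281 and 208 after rapamycin, so it was at the floor in WT. AGP1, a broad permease, rose by 3.95 (SE 0.12) and UGA4, which imports GABA, by 4.88 (SE 0.19). DIP5, for glutamate and aspartate, rose by 2.01 (SE 0.23). OPT1, a peptide transporter, fell, with a log2 fold change of -1.08 (SE 0.26, limma adjusted p = 0.0114), but its adjusted p was 0.0776 without WT replicate 2 and 0.068 without rapamycin replicate 1. Of 20 genes of amino acid breakdown, 13 rose and 4 fell: UGA1 and UGA2, the GABA route, at 3.81 (SE 0.13) and 4.52 (SE 0.17), and PUT1, proline oxidase, at 2.27 (SE 0.24). CHA1, the serine and threonine deaminase, fell by 1.34 (SE 0.2).

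Of the amino acid pathways, arginine synthesis had 8 of 10 rows higher and none lower and a median of 1.97. ARG1, argininosuccinate synthetase, had 20.1 and 14.9 scaled CPM in WT and 355 and 336 after rapamycin, a log2 fold change of 4.24 (SE 0.17, limma adjusted p = 3.29e-06). ARG4, which makes arginine from argininosuccinate, went from 52.7 and 46.5 to 344 and 332, or 2.75 (SE 0.13). GCN4, the activator of amino acid synthesis, had 904 and 866 in WT and 1785 and 1766 after rapamycin, or 1.0 (SE 0.17). The rise of GCN4 mRNA says nothing of its protein, which is controlled in translation. Other pathways were mixed: lysine had 3 higher and 2 lower of 10 (7 higher and 0 lower as deposited), with LYS1 at 1.54 (SE 0.12), and branched-chain 2 higher and 3 lower of 12 (4 higher and 2 lower as deposited). Of 24 sulfur and methionine genes, 12 rose and 6 fell, including MET17, which BY4741 lacks. MET16, which reduces activated sulfate, rose by 1.81 (SE 0.16), and the regulator MET28 by 2.81 (SE 0.22). Asparagine synthetases parted, ASN1 at 1.72 (SE 0.18) and ASN2 at -1.18 (SE 0.19).

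Nucleotide synthesis genes moved in both directions. Of 22 purine rows, 6 rose and 10 fell (11 higher and 5 lower as deposited), the number lower being 6 without WT replicate 1, 8 without WT replicate 2, 8 without rapamycin replicate 1 and 7 without rapamycin replicate 2. GUA1, GMP synthetase, had 573 and 495 in WT and 152 and 253 after rapamycin, or -1.44 (SE 0.26), whereas ADE17, an enzyme of the last steps to IMP, rose by 2.15 (SE 0.16). Of 17 pyrimidine rows, 2 rose and 9 fell (3, 5, 5 and 4 lower with 1 library left out), but 6 higher and 3 lower on the deposited scale. FUR1, which salvages uracil, fell from 461 and 386 to 118 and 122, or -1.81 (SE 0.16). URA10, the minor orotate phosphoribosyltransferase, rose by 2.47 (SE 0.27).

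Transcripts of TOR complex 1 and its upstream regulators changed by small amounts. Of 18 tested, 7 rose and 2 fell (13 higher and 0 lower as deposited), at a median of 0.32, and the number higher was 3 without WT replicate 1, 3 without WT replicate 2, 2 without rapamycin replicate 1 and 4 without rapamycin replicate 2. TOR1, a kinase of the complex, changed by 0.34 (SE 0.23) and was not called. GTR1, a Rag GTPase that signals amino acids, had 26.9 and 31.5 in WT and 65.4 and 66.2 after rapamycin, a log2 fold change of 1.15 (SE 0.14). Of 13 regulators of growth, 3 rose and 2 fell (8 higher and 0 lower as deposited). SCH9, the kinase below the complex, was at -0.11 and not called. STB3, a repressor of ribosome assembly genes, rose by 0.75 (SE 0.15) and CRF1, a repressor of ribosomal protein genes, by 1.3 (SE 0.19).

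More genes of ribosome production fell than rose on either scale. Small-subunit ribosomal proteins had 0 higher and 54 lower of 57, large-subunit ones 1 higher and 75 lower of 80, the small-subunit processome 0 higher and 51 lower of 59 (1 higher and 27 lower as deposited) and large-subunit assembly 0 higher and 63 lower of 74 (2 higher and 37 lower as deposited), against a background of 21.5% of rows lower. The median log2 fold change was -1.59 for small-subunit and -1.5 for large-subunit proteins, and -1.02 and -1.03 for the assembly lists. Rows of intron-containing and intron-less ribosomal protein genes had medians of -1.54 (84 rows) and -1.5 (45 rows). Copies of a ribosomal protein can be near identical, so reads of a pair may be split between its members by the counting. RPS3, which has no such pair, had 3838 and 4003 scaled CPM in WT and 794 and 733 after rapamycin, or -2.36 (SE 0.18). Among translation factors, initiation had 1 higher and 24 lower of 28 (1 higher and 7 lower as deposited) and elongation 2 higher and 13 lower of 17, with EF-3 YEF3 at -1.29 (SE 0.22) but its rarer paralog HEF3 at 2.85 (SE 0.17) and ANB1, a near-identical copy of eIF5A whose counts are uncertain, at 3.09 (SE 0.28). The snoRNP and RNA processing list had 0 higher and 24 lower of 35 (16, 13, 16 and 15 lower with 1 library left out, 4 higher and 9 lower as deposited) and tRNA modification 1 higher and 30 lower of 50 (9 higher and 13 lower as deposited). Of 69 rows of the mitochondrial ribosome 4 rose and 6 fell, at a median of -0.14 (5, 3, 3 and 5 lower with 1 library left out, 29 higher and 0 lower as deposited). Small nucleolar RNAs fell in 44 of 54 rows and rose in 2, although polyadenylated libraries catch only part of them.

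The elements known from ribosome assembly genes are shown in 2 promoters, PAC as GATGAG in ARX1 and RRPE as AAATTTT in FPR4, each in capitals with its reverse complement counted. Both genes stand in the list of large-subunit assembly and fell, and each stretch again is the 250 bases before the start codon in RefSeq's R64.
ARX1, chrIV:657468-657717, minus strand: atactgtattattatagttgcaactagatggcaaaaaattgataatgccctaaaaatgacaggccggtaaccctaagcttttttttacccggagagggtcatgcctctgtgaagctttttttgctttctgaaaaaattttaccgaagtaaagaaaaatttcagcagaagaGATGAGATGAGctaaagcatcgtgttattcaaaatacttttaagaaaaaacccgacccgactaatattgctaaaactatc
FPR4, chrXII:1030584-1030833, plus strand: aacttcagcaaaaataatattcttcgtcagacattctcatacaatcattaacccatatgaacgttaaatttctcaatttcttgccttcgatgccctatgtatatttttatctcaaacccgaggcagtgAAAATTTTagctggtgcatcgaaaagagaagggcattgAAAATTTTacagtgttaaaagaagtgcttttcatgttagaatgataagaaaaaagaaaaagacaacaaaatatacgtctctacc
ARX1 held 2 PAC matches and FPR4 4 RRPE matches, since AAAATTTT counts on both strands. ARX1 had 94.6 and 93.2 in WT and 25.6 and 29.8 after rapamycin, a log2 fold change of -1.73 (SE 0.16, limma adjusted p = 0.000124). FPR4 went from 524 and 516 to 130.2 and 120.0, or -2.05 (SE 0.18).

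In glycolysis and fermentation 6 of 23 rows were higher and 13 lower, at a median of -0.69, but on the deposited scale 8 higher and 5 lower. The number lower was 7 without WT replicate 1, 8 without WT replicate 2, 5 without rapamycin replicate 1 and 6 without rapamycin replicate 2. TDH2, a glyceraldehyde phosphate dehydrogenase, had 4552 and 4726 in WT and 1214 and 1118 after rapamycin, or -1.99 (SE 0.16), and the pyruvate kinase CDC19 changed by -1.39 (SE 0.26). TDH1 and the alcohol dehydrogenase ADH5 rose by 2.87 (SE 0.22) and 2.11 (SE 0.13). HXT5, a glucose transporter of slow growth, rose from 2.33 and 2.74 to 38.1 and 30.3.

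The TCA cycle rose in 22 of 29 rows and fell in 1. SDH2, an iron-sulfur subunit of succinate dehydrogenase, had 58.9 and 52.4 scaled CPM in WT and 350.5 and 310.0 after rapamycin, a log2 fold change of 2.55 (SE 0.24, limma adjusted p = 0.000132). PYC1, pyruvate carboxylase, went from 65.0 and 77.3 to 1076 and 1072, or 3.9 (SE 0.14), and citrate synthase CIT1 from 69.3 and 79.8 to 383 and 483. The respiratory chain had 14 higher and 2 lower of 23 and ATP synthase 12 higher and 0 lower of 19. The respiratory chain was uneven: cytochrome oxidase subunit COX5B rose by 3.45 (SE 0.13) and NDE2 by 3.0 (SE 0.3), while NDE1, another external NADH dehydrogenase, fell by 2.14 (SE 0.18) and cytochrome c CYC1 fell by 1.48 (SE 0.15).

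Genes of acetate, carnitine and glyoxylate use rose in 12 of 19 rows and fell in 1. CRC1, the mitochondrial carnitine carrier, had 2.96 and 3.22 in WT and 60.5 and 51.8 after rapamycin, or 3.8 (SE 0.18). YAT1, a carnitine acetyltransferase, went from 10.8 and 9.86 to 135 and 134, or 3.58 (SE 0.17). CIT2, the peroxisomal citrate synthase, rose by 3.96 (SE 0.23) and malate synthase MLS1 by 2.54 (SE 0.25), while ICL1, isocitrate lyase, was at -0.02 and not called. Trehalose and glycogen genes rose in 6 of 9 and 7 of 14 rows with none lower (glycogen 11 higher and 0 lower as deposited), such as TPS1, trehalose phosphate synthase, at 1.06 (SE 0.2) and the debranching enzyme GDB1 at 2.02 (SE 0.17).

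Organelles of carbon use did not move as one. Import into mitochondria had 4 higher and 22 lower of 42, with 8 higher and 0 lower on the deposited scale, and the number lower was 9 without WT replicate 1, 12 without WT replicate 2, 12 without rapamycin replicate 1 and 11 without rapamycin replicate 2. Peroxisome and fatty acid oxidation rows had 15 higher and 3 lower of 41 (31 higher and 0 lower as deposited), the number higher being 6 without WT replicate 1, 11 without WT replicate 2, 6 without rapamycin replicate 1 and 9 without rapamycin replicate 2. In the pentose phosphate pathway RKI1 was at -1.74 (SE 0.22) and TKL1 at -1.02 (SE 0.13), while the paralogs NQM1 of transaldolase and SOL4 of lactonase rose by 2.91 (SE 0.42) and 2.3 (SE 0.29).

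**Figure D3:**
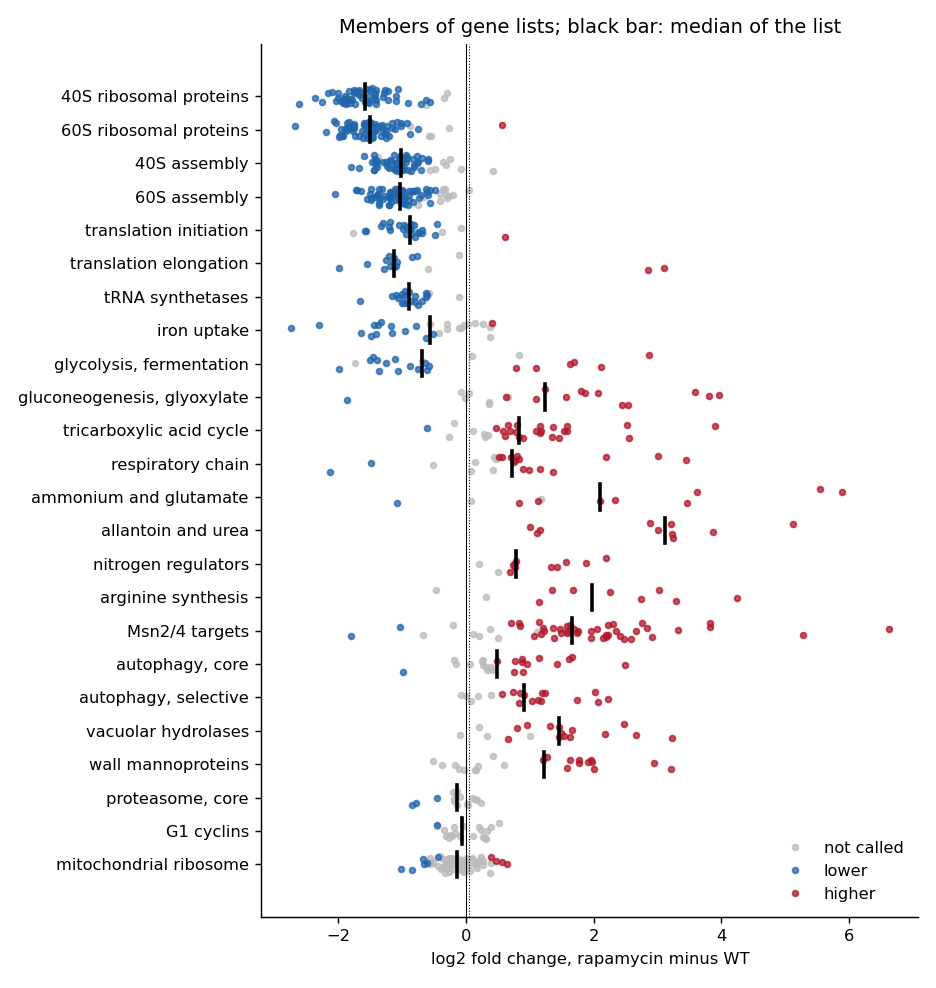
Log2 fold change (rapamycin minus WT, x axis) of each tested member of 24 lists of genes, 1 point a row, coloured by call, with a black bar at the list's median. Vertical lines mark 0 (solid) and the median of all rows, 0.05 (dotted). Ribosome lists lie left of 0, and nitrogen, stress and vacuole lists right of it.

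Stress genes of the Msn2 and Msn4 set rose in 41 of 50 rows and fell in 2, at a median of 1.66. The stress element AGGGG is shown in 2 of their promoters in capitals, as the 250 bases before the start codon in RefSeq's R64.
DDR2, chrXV:231756-232005, minus strand: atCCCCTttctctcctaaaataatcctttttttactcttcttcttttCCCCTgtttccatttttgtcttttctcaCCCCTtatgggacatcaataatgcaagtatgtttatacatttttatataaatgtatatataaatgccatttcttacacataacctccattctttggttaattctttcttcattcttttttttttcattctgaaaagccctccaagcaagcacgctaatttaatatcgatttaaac
SSA4, chrV:364339-364588, plus strand: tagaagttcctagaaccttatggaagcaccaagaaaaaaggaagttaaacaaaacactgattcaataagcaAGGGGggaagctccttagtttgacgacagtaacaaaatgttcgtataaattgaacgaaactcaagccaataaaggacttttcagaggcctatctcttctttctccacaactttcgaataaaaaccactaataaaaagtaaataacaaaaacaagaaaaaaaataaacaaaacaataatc
DDR2 held 3 matches and SSA4 1. Both were picked as leading risers that hold the motif. With 50 bases after the start codon included, AGGGG stood in 29 of 44 promoters of the list. Medians with and without it were 1.76 and 1.59. SSA4, a heat-inducible Hsp70, had 8.34 and 7.53 scaled CPM in WT and 91.7 and 85.0 after rapamycin, a log2 fold change of 3.32 (SE 0.23, limma adjusted p = 3.26e-05), and the libraries of each group lay close together. ALD2, an aldehyde dehydrogenase, went from 19.7 and 22.5 to 321 and 301, or 3.82 (SE 0.19). GRE2, a reductase, fell by 1.8 (SE 0.17).

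MSN4 rose by 1.73 (SE 0.26), whereas its paralog MSN2 was at 0.05 and not called. Heat shock chaperones moved in both directions: of 27, 10 rose and 6 fell (19 higher and 2 lower as deposited). On the TMM scale these are 37.0% and 22.2%, against 24.4% and 21.5% of all rows. The disaggregase HSP104 rose by 2.14 (SE 0.18) and the mitochondrial HSP78 by 2.46 (SE 0.14). SSB1 and SSB2, Hsp70 chaperones that sit on translating ribosomes, fell, with log2 fold changes of -1.97 (SE 0.2) and -1.27 (SE 0.24). They are near-identical copies, so the split of reads between them is uncertain.

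Many genes of autophagy and of vacuolar hydrolysis rose. Core autophagy had 12 higher and 1 lower of 23, selective autophagy 14 higher and 0 lower of 19 and vacuolar hydrolases 14 higher and 0 lower of 18. The number of selective autophagy rows higher was 10 without WT replicate 1, 10 without WT replicate 2, 11 without rapamycin replicate 1 and 9 without rapamycin replicate 2. ATG8, which builds the autophagosome membrane, had 6.25 and 7.94 in WT and 45.4 and 42.8 after rapamycin, a log2 fold change of 2.49 (SE 0.17, limma adjusted p = 2.8e-05). ATG9, the membrane carrier, rose by 1.67 (SE 0.19), and the mitophagy receptor ATG32 by 1.23 (SE 0.17). Of the hydrolases, AMS1, vacuolar mannosidase, rose by 3.23 (SE 0.19) and the proteinase PEP4 by 1.45 (SE 0.14). UBI4, the polyubiquitin gene, had 10.2 and 8.42 in WT and 54.2 and 57.8 after rapamycin, or 2.47 (SE 0.15). The core proteasome had 0 higher and 3 lower of 16 (10 higher and 0 lower as deposited).

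Of 36 ubiquitin rows, 13 rose and 2 fell (29 higher and 0 lower as deposited). VID24 and GID8, of the ubiquitin ligase that removes gluconeogenic enzymes, rose by 2.3 (SE 0.2) and 1.64 (SE 0.3), and the arrestin CSR2 by 1.98 (SE 0.28). Of 25 rows of the regulatory particle 3 rose and 4 fell (2, 1, 1 and 1 lower with 1 library left out, 13 higher and 0 lower as deposited). Antioxidant genes had 10 higher and 3 lower of 36 (24 higher and 0 lower as deposited): the peroxiredoxin TSA2 had 8.68 and 10.1 in WT and 59.6 and 53.6 after rapamycin, or 2.47 (SE 0.22), the glutathione transferase GTT1 rose by 2.01 (SE 0.13) and the glutaredoxin GRX1 by 1.16 (SE 0.16). The V-ATPase, which acidifies the vacuole, had 2 higher and 6 lower of 21, against 9 higher and 3 lower on the deposited scale, and its proteolipid subunits VMA11 and VMA3 were at -1.6 (SE 0.27) and -1.28 (SE 0.16).

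Wall proteins rose in 12 of 23 rows with none lower. TIR1, a mannoprotein known from cold and low oxygen, had 190.2 and 166 in WT and 1383 and 1365 after rapamycin, a log2 fold change of 2.94 (SE 0.14, limma adjusted p = 6.05e-06). SED1, a major wall protein, changed by 1.91 (SE 0.19) and PIR3 by 3.21 (SE 0.31), while CCW12, among the most abundant transcripts in both groups, was at -0.17 and not called. GSC2, a glucan synthase subunit of stress, rose by 2.74 (SE 0.17). Glycosylation had 3 higher and 21 lower of 47 (10, 10, 10 and 12 lower with 1 library left out), but 15 higher and 3 lower on the deposited scale. Lipid synthesis was mixed: FAS1, fatty acid synthase, fell by 1.03 (SE 0.15) and OLE1, the desaturase, fell by 1.27 (SE 0.17), while OPI3, which makes phosphatidylcholine, rose by 2.89 (SE 0.14). Fatty acid synthesis as a list had 2 higher and 8 lower of 13, and 4 higher and 3 lower on the deposited scale.

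Of the genes of cell division, the G1 list had 0 higher and 1 lower of 20 (0, 0, 0 and 0 lower with 1 library left out, 8 higher and 0 lower as deposited), mitotic cyclins and regulators 2 higher and 6 lower of 32 (4, 3, 3 and 5 lower with 1 library left out, 11 higher and 1 lower as deposited), DNA replication 1 higher and 11 lower of 51 (4, 2, 4 and 5 lower with 1 library left out, 19 higher and 1 lower as deposited), kinetochore and spindle 9 higher and 4 lower of 49 (5, 3, 2 and 2 higher with 1 library left out, 28 higher and 0 lower as deposited) and septins and cytokinesis 0 higher and 3 lower of 17 (1, 0, 0 and 0 lower with 1 library left out, 7 higher and 0 lower as deposited). Histones had 0 higher and 3 lower of 10 (1, 1, 2 and 2 lower with 1 library left out), and on the deposited scale 4 higher and 0 lower. CLB6, an S-phase cyclin, fell by 1.27 (SE 0.24). Nuclear pore and export genes had 2 higher and 22 lower of 51 (8, 13, 11 and 8 lower with 1 library left out), though 13 higher and 2 lower on the deposited scale. Iron uptake had 1 higher and 14 lower of 27, with FIT3 at -2.73 (SE 0.15) and FET3, the multicopper oxidase, at -2.29 (SE 0.15). The list of a-type mating and pheromone response genes had 5 higher and 2 lower of 16 (11 higher and 0 lower as deposited). Of the a-type mating genes, MFA1 rose by 1.63 (SE 0.24), and sporulation rows, low in both groups, had 8 higher and 0 lower of 17 (6, 6, 5 and 6 higher with 1 library left out), with NDT80 at 2.36 (SE 0.2).

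Transport and nutrient genes moved in both directions, at shares near those of all rows, 24.4% higher and 21.5% lower. Drug efflux and plasma membrane genes together were 29.4% higher and 23.5% lower. Iron, phosphate, zinc, copper and vitamin genes together were 23.7% higher and 27.2% lower. Drug efflux had 6 higher and 9 lower of 28 (16 higher and 4 lower as deposited), with the pumps PDR5 and SNQ2 at -1.76 (SE 0.16) and -1.23 (SE 0.15) and the polyamine exporter TPO2 at 3.33 (SE 0.35). Vitamin genes had 16 higher and 4 lower of 43 (33 higher and 1 lower as deposited), the number higher being 10 without WT replicate 1, 14 without WT replicate 2, 10 without rapamycin replicate 1 and 11 without rapamycin replicate 2. Phosphate genes had 6 higher and 7 lower of 26 (3, 2, 3 and 2 lower with 1 library left out, 11 higher and 1 lower as deposited), zinc and copper genes 5 higher and 8 lower of 22 (5, 4, 4 and 5 lower with 1 library left out, 11 higher and 1 lower as deposited) and plasma membrane pumps and domains 9 higher and 3 lower of 23 (4, 7, 6 and 6 higher with 1 library left out). Hexose transport had 4 higher and 1 lower of 9 (2, 3, 3 and 2 higher with 1 library left out), with HXT1, a transporter of high glucose, at -2.87 (SE 0.15).

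RNA polymerase II and its general factors had 1 higher and 11 lower of 30 (6, 8, 7 and 4 lower with 1 library left out), but 11 higher and 2 lower on the deposited scale. RNA polymerase III and its factors had 2 higher and 10 lower of 21, but 8 higher and 5 lower on the deposited scale. Mediator had 3 higher and 3 lower of 25 (10 higher and 0 lower as deposited), chromatin remodelling and SAGA 6 higher and 5 lower of 47 (4, 3, 3 and 3 higher with 1 library left out, 20 higher and 1 lower as deposited), splicing 9 higher and 9 lower of 62 (3, 5, 4 and 4 higher with 1 library left out, 37 higher and 1 lower as deposited) and mRNA decay 4 higher and 8 lower of 40 (3, 3, 1 and 2 lower with 1 library left out, 20 higher and 0 lower as deposited). Chaperonin and prefoldin had 1 higher and 11 lower of 21 (3 higher and 6 lower as deposited), with CCT7 at -1.33 (SE 0.12).

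Of the lists of membrane traffic and lipids, translocation and vesicle coats had 2 higher and 12 lower of 47 (6, 5, 6 and 2 lower with 1 library left out), but 22 higher and 1 lower on the deposited scale. Exocytosis and actin had 6 higher and 0 lower of 40 (4, 1, 2 and 4 higher with 1 library left out, 31 higher and 0 lower as deposited), ESCRT and vacuole fusion 9 higher and 1 lower of 34 (4, 5, 3 and 4 higher with 1 library left out, 27 higher and 0 lower as deposited) and ER folding 3 higher and 5 lower of 31 (3, 4, 4 and 4 lower with 1 library left out, 20 higher and 1 lower as deposited). Ergosterol synthesis had 4 higher and 8 lower of 28 (4, 5, 5 and 5 lower with 1 library left out), but 14 higher and 4 lower on the deposited scale, and sphingolipids 1 higher and 8 lower of 22 (7, 5, 3 and 4 lower with 1 library left out), but 10 higher and 1 lower. Phospholipids had 6 higher and 6 lower of 29 (15 higher and 1 lower as deposited) and storage lipids 3 higher and 1 lower of 12 (3, 3, 1 and 3 higher with 1 library left out, 7 higher and 0 lower as deposited).

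Regulators of carbon use had 12 higher and 3 lower of 39 (24 higher and 1 lower as deposited) and of stress 6 higher and 3 lower of 23 (16 higher and 1 lower as deposited), while the phosphatases and kinases below TOR had 3 higher and 2 lower of 23 (12 higher and 0 lower as deposited) and TOR complex 2 with its targets 5 higher and 1 lower of 13 (5, 2, 3 and 4 higher with 1 library left out, 10 higher and 1 lower as deposited). PDE1, a cAMP phosphodiesterase, rose by 2.2 (SE 0.15), and the stress factor USV1 by 1.99 (SE 0.21). In amino acid synthesis the histidine list had 4 higher and 1 lower of 7, the aromatic list 1 higher and 3 lower of 13 (1, 2, 1 and 1 lower with 1 library left out, 5 higher and 1 lower as deposited), serine, glycine and folate 4 higher and 4 lower of 16 (2, 2, 3 and 3 higher with 1 library left out, 9 higher and 1 lower as deposited), and aspartate and threonine 1 higher and 3 lower of 10, the last with 3 higher and 1 lower on the deposited scale.

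Genes for the same activity often parted. Of 41 pairs whose members have rows of their own, in 9 the member listed second rose while the first fell, in 1 the reverse, and in 7 both rose. Only the second rose in 12 and only the first in 3. Only the first fell in 4, only the second in 1, both in 1, and neither changed in 3. Pairs and their order were fixed from textbook knowledge with earlier results known, so this split is no independent evidence of a direction. GDH3, a second NADPH-dependent glutamate dehydrogenase, was 3.59% of its pair with GDH1 in WT and 14.2% after rapamycin. COX5B was 16.6% of the COX5 pair in WT and 76.2% after. CYC7 went from 5.33% to 45.2% and BAT2 from 49.7% to 93.9%. HXT5 made up 0.79% of the pair with HXT1 in WT and 44.7% after rapamycin. The gene named gained share in each of these pairs. PYC2 instead went from 57.5% to 11.9% of its pair, as PYC1 rose by 3.9 (SE 0.14). PYC2 itself was at 0.58 (SE 0.14), with an adjusted p of 0.0719 without WT replicate 2 and 0.0771 without rapamycin replicate 1. GPP2, glycerol phosphatase, went from 1.77% to 17.6% and SSA4 from 0.218% to 5.31%. In leucine synthesis LEU9 fell by 2.1 (SE 0.16) on the log2 scale and LEU4 rose by 1.89 (SE 0.21).

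**Figure D4:**
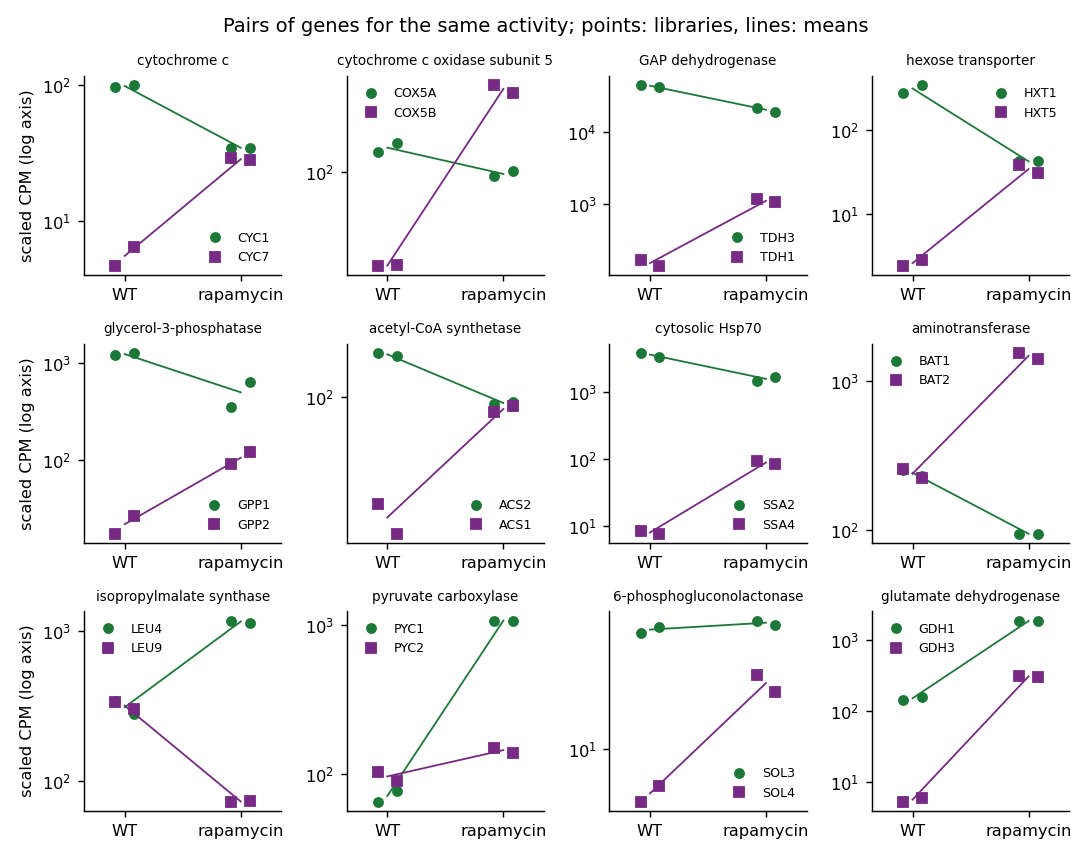
Scaled CPM (log axis) of both genes of 12 pairs in WT and after rapamycin; points are libraries and lines join the group means. CYC1 and CYC7 converge, COX5A and COX5B cross, and LEU4 and LEU9 separate.

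Promoters were searched for 12 motifs in 4870 genes, over 250 bases before and 50 after the start codon on both strands. AGGGG, a stress element, stood in 21.6% of promoters, and the median log2 fold change was higher with more matches: -0.01 with none (3819 genes), 0.21 with 1 (914), 0.48 with 2 (114) and 0.84 with 3 or more (23). PAC, GATGAG, in 20.6%, went the other way, at 0.09, -0.11, -0.55 and -0.90 for 0, 1, 2 and 3 or more matches. RRPE, AAATTTT, in 24.7%, gave 0.13, -0.04, -0.48 and -0.83 in the same order. A single AAAATTTT counts as 2 RRPE matches, so this order is not by number of sites. PAC stood in 91.5% of promoters of the small-subunit processome and 86.3% of those of large-subunit assembly. Within those lists, promoters with and without PAC had medians of -1.02 and -0.99 in the first and -1.02 and -1.05 in the second. GATAAG was in 14.7% and gave 0.02, 0.17 and 0.47 for 0, 1 and 2. The difference in median between promoters with and without was 0.264 for AGGGG, 0.17 for GATAAG, -0.288 for PAC and -0.356 for RRPE. For the remaining motifs it was closer to 0. It was 0.155 for the post-diauxic element TTAGGG (in 7.06% of promoters), 0.132 for the Gcn4 site TGACTC (8.46%) and 0.099 for the heat shock element TTCTAGA (3.7%). The difference was 0.032 for the MluI box ACGCGT (3.29%), 0.031 for the Cbf1 site CACGTG (3.06%) and 0.027 for the Hap box CCAAT (44.4%). For the Rap1 site CCATACA (2.92%) and the proteasome element GGTGGCA (3.08%) it was -0.087 and -0.091. The Rap1 letters stood in only 4 of 52 promoters of small-subunit ribosomal proteins and 3 of 77 of large-subunit ones. Their difference therefore says little of the ribosomal protein genes. A match is a string of letters, not a bound site.

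**Figure D5:**
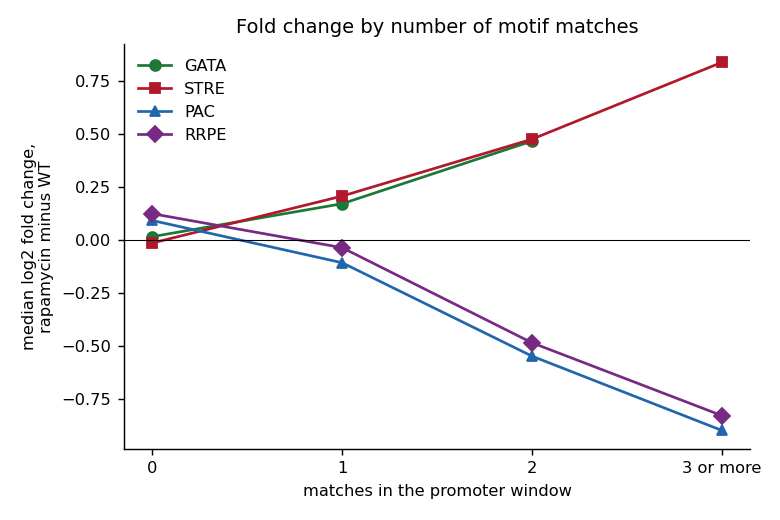
Median log2 fold change (y axis) of genes by the number of matches (x axis) to the GATA site, the stress element, PAC and RRPE in the 300-base window. For the stress element the median goes from -0.01 without a match to 0.84 with 3 or more, for PAC from 0.09 to -0.90 and for RRPE from 0.13 to -0.83. For RRPE, AAAATTTT counts on both strands, so its matches are not numbers of sites.

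In the middle of the response, the genes closest to a 2-fold rise, with at least 100 CPM, were GCN4, DAP1, YMR315W, RDL1, ARF2 and ATP15, and closest to a 2-fold fall were AMN1, TCP1, SPT15, SUI3, THS1 and BFR1. Of these, SUI3, a subunit of eIF2, had an adjusted p of 0.0111, which became 0.104 when WT replicate 1 was left out, 0.0506 when WT replicate 2 was, and 0.11 on the deposited scale. The least changed abundant genes included the actin-related ARP2 (-0.01), SRV2 (0.03) and the proteasome subunit RPN2 (0.04). The interval of the change lay within ±0.5 for 565 rows (10.7%). Abundance and direction went together: the 528 rows least abundant in WT had a median of 0.51 with 214 higher and 16 lower, and the 528 most abundant a median of -0.76 with 38 higher and 319 lower. WT values enter both measures of that description. The most abundant transcript in both groups was TDH3, another glyceraldehyde phosphate dehydrogenase, at 44645 and 42324 in WT and 21307 and 19070.0 after rapamycin, a log2 fold change of -1.11 (SE 0.35, limma adjusted p = 0.0312). Its adjusted p was 0.19 without WT replicate 1, 0.163 without WT replicate 2, 0.178 without rapamycin replicate 1 and 0.239 without rapamycin replicate 2, and 0.103 on the deposited scale.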

How the data were processed

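3′-end libraries (QuantSeq) of WT, rapamycin-treated WT and a bud27 deletion, 2 each, were sequenced on a HiSeq instrument, per the labels' protocols. The submitters' processing notes list build R64 and the tools HISAT2, FastQC, DESeq2 and DESeq, with neither role nor version. The deposited values are CPM per row, that is read counts over the library total. Every value was a whole multiple of 1 read within a tolerance of 0.01, so whole reads were recovered for 100% of values. Gene rows passed edgeR's filter with a minimum count of 10, were scaled by TMM, and log2(scaled CPM + 1) was tested with limma (trend) over the 6 libraries in 3 groups, contrast rapamycin minus WT, with Benjamini-Hochberg adjustment over 5279 rows. WT TMM factors were 0.767 and 0.805 and rapamycin factors 1.193 and 1.199. Depth was 26899486 and 18153459 reads per WT library and 28774941 and 20841682 per rapamycin library. A count of 3 reads, the least that a floor allows for, is at most 0.165 CPM in these libraries, a limit that covers counting error only. R 4.3.3, limma 3.58.1, edgeR 4.0.16, DESeq2 1.42.0, Python 3.11.15, pandas 2.3.3, numpy 2.4.6 and matplotlib 3.10.9 were used, and the limma fit was tested on simulated data. In those data few rows changed, evenly up and down, so that test does not bear on the choice of scaling.

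The members and gene lists were chosen with earlier results of these data known, so no count of a list is independent evidence of its direction. Named genes are the 12 that rose and fell most (mean of at least 20 CPM), up to 3 leading called members and the strongest opposite member of a list, whole small lists, the 10 least changed and 6 nearest 2-fold genes (at least 100 CPM), the 10 most abundant, and promoter examples; others were chosen after their values were seen, namely GAP1, PUT1, CHA1, OPT1, YEF3, NDE2, MLS1, ICL1, TPS1, RKI1, SSB2, ATG9, AMS1, PEP4, CSR2, PIR3, CLB6, NDT80, USV1, the mating-type genes and the genes that the strain lacks. A few genes stand in more than 1 list, and some entries sit oddly: GAT1 entered the phospholipid list, SUT1 the Mediator list, PHO3 the vitamin list and CTF19 the phosphate list. No promoter table was given, so promoters were read from the RefSeq genome of R64, upstream of the annotated start codon. 12 short motifs were searched on both strands, with overlapping matches counted. Alternatives were the deposited scale, median-of-ratios scaling, pseudocounts of 0.25 and 5, no filter, a mean of at least 20 CPM, 4 libraries only, edgeR, DESeq2, each library left out and a replicate block. CUT and SUT rows were left out, as was the deletion against WT. No column other than the 6 libraries was present. Some genes and 1 pair of genes are not reported here by name.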

Additional observations from a re-analysis of the deposited data

How the results depend on the processing

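Totals called ranged from 1588 to 1685 with 1 library left out, with 852 to 897 higher and 736 to 788 lower, and the other settings gave totals of 1700 (mean of at least 20 CPM) to 3318 (deposited scale). The deposited scale gave 2886 higher and 432 lower rows and 326 rows close to no change. On that scale the calls of these lists turned from more rows lower than higher to more higher than lower. The number lower became 0 in the mitochondrial ribosome, mitochondrial import, the core proteasome, its regulatory particle, the G1 list, histones, septins and mRNA decay. It was 1 in aromatic synthesis, aspartate and threonine synthesis, ER folding, sphingolipids, translocation and coats, mitotic cyclins, DNA replication, phosphate and zinc and copper. It was 2 in branched-chain synthesis, RNA polymerase II and the nuclear pore. It was 3 in pyrimidines, the V-ATPase, fatty acid synthesis and glycosylation. It was 4 in ergosterol and drug efflux. It was 5 in RNA polymerase III, purines and glycolysis. ARP2 (0.59) and SCH9 (0.49) changed sign on the deposited scale. With a mean of at least 20 CPM the direction turned for ergosterol and ER folding (4 lower each), phosphate and drug efflux (3 each), mitotic cyclins (1) and the genes the strain lacks (0). With only the 4 libraries it turned for growth regulators (3 higher) and chromatin remodelling and SAGA (9 higher), the latter also under median-of-ratios scaling and DESeq2 (4 higher each), and under the replicate block for phosphate (5 lower). With 1 library left out, glycolysis had 5 to 8 rows lower, phosphate 2 to 3, mRNA decay 1 to 3, the regulatory particle 1 to 2 and the G1 list 0, and each turned direction in at least 1 of these settings. With 250 bases the motif difference was 0.287 for the stress element, -0.344 for PAC, -0.369 for RRPE, -0.126 for the Rap1 site, 0.187 for the Gcn4 site and 0.0 for the Hap box. On the deposited scale it was -0.335 for RRPE, 0.147 for the Gcn4 site, 0.016 for the Hap box and -0.059 for the proteasome element. The cause of these changes was not tested, beyond the deposited scale lifting the median of all rows from 0.05 to 0.60. With the replicate number as a block, 2320 rows were called, 1237 higher and 1083 lower. The replicate differences of WT and rapamycin correlated at -0.0973 over all rows, so no shared shift by replicate number was seen. Whether equal numbers mark paired samples cannot be told from this correlation. Depth limits what can be said of rows near the floor, such as GAP1.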

Other observations

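Of the 2924 rows in no list, 792 rose (27.1%) and 409 fell (14.0%), against 24.4% and 21.5% of all rows. Protein-coding genes outside every list that have only a systematic name numbered 288, of which 117 rose and 33 fell, at a median log2 fold change of 0.37. Those with a standard name numbered 2344, with 603 higher, 295 lower and a median of 0.13. Small nucleolar RNAs had 2 of 54 rows higher and 44 lower.

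The genes that follow are in no list and were chosen after their values were seen. SLT2, the MAP kinase of the cell wall integrity pathway, had 32.0 and 34.1 scaled CPM in WT and 113 and 121 after rapamycin, a log2 fold change of 1.79 (SE 0.13, limma adjusted p = 4.88e-05). PRM5, a transcriptional target of that pathway, went from 13.4 and 17.5 to 95.7 and 101, or 2.61 (SE 0.16). PRY1, a sterol-binding secreted protein, rose by 3.36 (SE 0.16), and NCA3 by 3.75 (SE 0.25). ALT1, the mitochondrial alanine transaminase, had 58.1 and 59.8 in WT and 541 and 541 after rapamycin, or 3.18 (SE 0.14). The row that joins POR1, the mitochondrial porin, with a tRNA gene went from 1864 and 1361 to 7651 and 6941, so its reads cannot be assigned to porin alone. MTC7 fell, with a log2 fold change of -2.14 (SE 0.17). No cause of these values was tested.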
